A study of Mus musculus with 12 samples.

Results

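The genes described here are those of the proteasome, the cytosolic and nuclear machine that degrades proteins tagged with ubiquitin. Members were all probe sets on the Affymetrix designs MOE430A and MOE430B with exactly 1 gene symbol that begins with Psma, Psmb, Psmc, Psmd, Psme, Psmf or Psmg. They numbered 106 probe sets (85 on MOE430A and 21 on MOE430B) and 49 genes, out of 18193 genes that the same rule finds over both designs. Where a gene had several probe sets, the one brightest on average over the 6 samples (mean log2 signal) stood for it, and it lay on MOE430A for 44 members and on MOE430B for 5 (Psma1, Psmb5, Psmb11, Psmc3ip and Psmc5). All 49 lay in the upper range of mean signal that was tested, together with 11808 genes in all. A probe set listing both Psme2b and Psme2 was left out because it names more than 1 gene, so the interferon-inducible activator subunit Psme2 is not among the members. The prefix also takes in Psmc3ip, a factor of meiotic recombination, and Psme3ip1, a partner of an activator, neither of which is a proteasome subunit.

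The proteasome consists of a barrel-shaped core particle and of caps that open it. The core is built of alpha rings, which gate the entrance, and beta rings, of which a few subunits carry the proteolytic sites, and immune cells can exchange these for interferon-inducible counterparts. The regulatory cap has a base, whose ATPases unfold the substrate, and a lid, which removes the ubiquitin chain, while dedicated chaperones assemble core and base and do not stay in the finished particle. In blood-forming stem cells, protein synthesis and turnover are known to be kept under tight control.

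The samples were cDNA amplified by PCR from lysates of about 30 mouse bone marrow stem cells each, sorted by flow cytometry into cells with (CD49+) and without (CD49-) surface CD49, the family name of integrin alpha subunits, and taken 0 h after the sort. There were 3 CD49+ and 3 CD49- samples, each hybridised to both designs, which made 12 arrays, and the purity estimated for every preparation was 97.03%. The sample titles carry 2 submission codes: MZ1484 covers 2 samples (CD49+ replicate 1 and CD49- replicate 1) and MZ1468 covers 4 (replicates 2 and 3 of both groups). The sources used here give neither the alpha subunit stained, nor the strain or age of the mice, nor whether replicates came from separate animals or sorts, so p-values cover the spread among these 6 samples alone, part of which may be technical.

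Values are linear MAS5 signals per probe set, and levels and differences are given as log2(signal + pseudocount), the pseudocount being 27.0 on MOE430A and 139.8 on MOE430B. The designs were scaled separately, so signals cannot be compared between them. In CD49+ replicate 1 the same probe set of Psma1 gave 135606 on MOE430B and 17483 on MOE430A. This scale also entered the choice of the brightest probe set. A signal counted as above background where it exceeded the highest of 27 Bacillus control probe sets of its array, a bound that ran from 78.0 to 149 over the MOE430A arrays and from 844 to 1466 over those of MOE430B. The MZ1484 arrays of MOE430A had 39.5% and 46.9% of probe sets above the bound, against 49.7% to 61.1% on the MZ1468 arrays. Their ratio of 3' to 5' beta-actin signal was 7.48 and 2.63, against 8.83 to 19.8 in MZ1468. The submissions overlapped in the same ratio on MOE430B (11.7 and 3.26, against 6.52 to 14.7), in the share above the bound there (18.8% and 25.5%, against 16.5% to 28.6%) and in the Gapdh ratio on MOE430A (1076 and 95.7, against 13.9 to 1146). Of 10 stem and progenitor markers 8 were measured and 6 (Kit, Cd34, Ptprc, Gata2, Meis1 and Mecom) exceeded the bound on all arrays. Procr did so in 5 samples and Slamf1 in 3. Slamf1 was above the bound in all 3 CD49- samples and in 0 CD49+ samples (at least 6.93-fold lower in CD49+, not called). Of the markers of other lineages Lyz2 and Flt3 exceeded the bound on all arrays, Col1a1 in 5 samples, Cd8a and Csf1r in 4 and Cd79a in 3, while Cd3e, Ms4a1, Hba-a1, Itgax, Ncr1, Pdgfrb and Pecam1 did so in none. The MZ1484 arrays were scanned on 1 day and the MZ1468 arrays on another on both designs. On MOE430A the station number in the run settings was 1 for the MZ1484 arrays and 2 for the MZ1468 arrays. On MOE430B it was 1 for all arrays. Submission and scan day, and on MOE430A the station too, thus cannot be told apart.

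On the probe set that stood for each gene, core particle genes varied less over the 6 samples than those of the regulatory cap, above all of its lid. Other probe sets of a gene could have a larger or smaller log2 range. For the second of Psma7 it was 6.75 (1 signal under the bound), against 2.48, and for that of Psma5 2.22, against 2.50. Of the 49 members 38 exceeded the bound in all 6 samples and every member did so in at least 1. The range of log2 levels over the 6 samples was under 1 for 9 of 19 core genes and for 1 of 17 genes of the cap (Psmc2), against 1344 of the 11808 tested genes (11.4%). It was over 3 for 2 of 19 core genes (Psma4 and Psma8), 11 of 17 cap genes and 5 of 7 assembly chaperones, against 5463 of all tested genes (46.3%). The median range was 1.00 for the core, 3.62 for the cap and 2.77 over all tested genes. Core genes were also brighter: the median of the mean log2 levels was 13.8 for the core, 12.1 for the cap and 10.3 over all tested genes. Psma1, Psmb5 and Psmb11 of the core and Psmc5 of the cap entered on the different scale of MOE430B. The part of signal level in these ranges was not tested. Among the MZ1468 samples alone the median range was 0.39 for the core and 0.64 for the cap, against 1.47 over all tested genes. For the 8 lid genes it was 0.59 among the MZ1468 samples, where it was 3.79 over all 6.

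**Figure D1:**
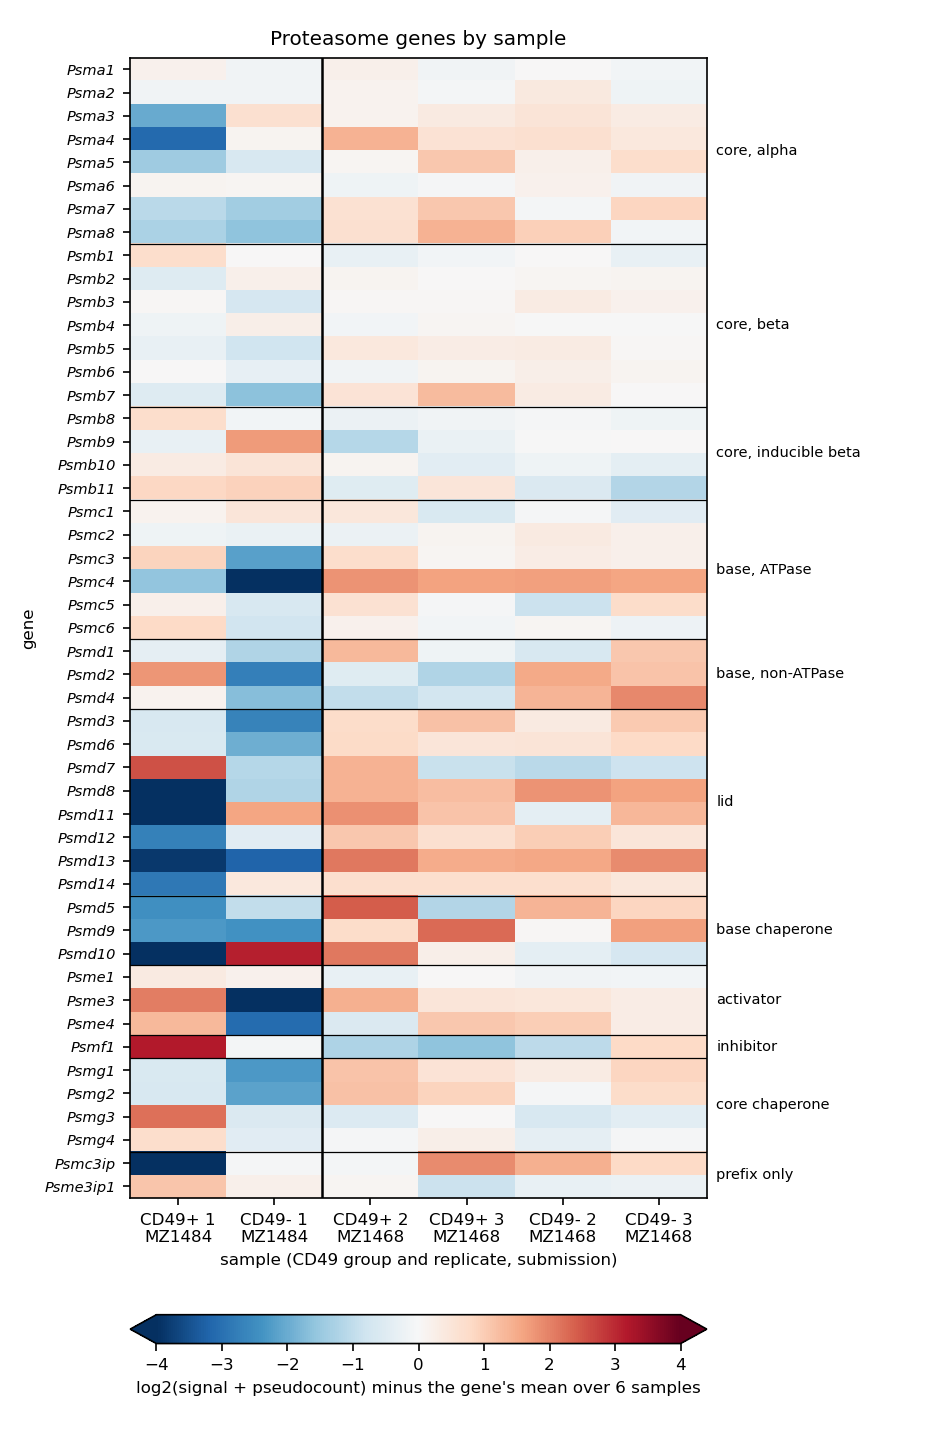
Deviation of each of the 49 members (rows, grouped by role) from its mean over the 6 samples, in log2(signal + pseudocount), for the MZ1484 samples (left of the line) and the MZ1468 samples (right), with CD49+ left of CD49- in each. The core rows are mostly pale, whereas the lid rows run from a median deviation of -2.78 in the CD49+ and -1.17 in the CD49- sample of MZ1484 to between 0.60 and 1.23 in the MZ1468 samples.

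The comparison that the sort addresses is CD49+ against CD49-. No proteasome gene differed between CD49+ and CD49- cells by limma's test at an adjusted p of 0.05. The count was 0 of 49, beside 0 of 11808 tested genes, a share called of 0%. At an unadjusted p under 0.05 the counts were 0 members and 346 genes, and the smallest unadjusted p of a member was 0.0724 (Psmd7). The difference was positive for 29 members and negative for 20, with a median of 0.16 (range -1.70 to 2.63), against a median of -0.03 over all tested genes. The CD49+ and CD49- samples did not overlap for 3 members, the activator Psme3 and the core chaperone Psmg4 (higher in CD49+) and the inducible subunit Psmb9 (lower in CD49+, with 1 signal under the bound), beside 8.12% of all tested genes in either direction. Within MZ1468, with 2 samples a group, the CD49 difference exceeded 1 in size for 6 of 49 members (12.2%), against 24.8% of all tested genes. Within MZ1484, with 1 sample a group, it did so for 26 members (53.1%), against 48.6%. The sign was the same in both submissions for 26 members (18 positive, 8 negative) and opposite for 23, against 2869 positive, 3033 negative and 5906 opposite among all tested genes. The median of 0.16 turns to -0.14 without CD49- replicate 1 and reaches 0.34 in the MZ1484 samples alone.

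The comparison between the submissions, MZ1484 minus MZ1468 with CD49 group as a covariate, has no stated question behind it and serves to describe how far these genes follow the submission. Of the 49 members 5 were called by limma, all lower in MZ1484: the ATPase Psmc4, the lid subunits Psmd6, Psmd8 and Psmd13, and the base chaperone Psmd9. Of all tested genes, 3.35% were called lower and 0.703% higher in MZ1484, while 0 members were called higher. These shares pool both designs, whereas 44 of the 49 members, with all 5 called, were read on MOE430A. Over all probe sets, 708 of 11313 tested were called lower on MOE430A and 34 of 11256 on MOE430B. The pooled share called lower is thus a low background for most members. At an unadjusted p under 0.05 there were 17 members, 16 of them subunits or regulators and the other Psmc3ip, against 2675 of the 11808 genes. The median difference was -0.95 over the members and -0.21 over all tested genes, and 33 members were negative against 16 positive. Over probe sets the median was -0.43 on MOE430A and -0.06 on MOE430B. Both MZ1484 samples lay below all 4 MZ1468 samples for 16 members, where 19.8% of all tested genes did, and above all 4 for 4 members (Psmb10, Psmb11, Psme1 and Psme3ip1), where 13.5% did. Psmb11 exceeded the bound in only 1 sample, so its order is mostly among background signals.

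By role, the median submission difference was -2.42 for the lid, -2.59 for the 3 base chaperones, -1.28 for the alpha subunits, -0.32 for the base ATPases, -0.24 for the standard beta subunits and 0.84 for the inducible or tissue-specific beta subunits. The last of these medians includes Psmb11, above the bound in only 1 sample. When each array is centred on its median, the standard beta median changes sign, to 0.03, while those of the lid, the alpha subunits, the base ATPases and the inducible or tissue-specific beta subunits keep theirs. Centring or quantile normalization moves the median of all genes to -0.05 or 0.00 and that of the members to -0.69 or -0.64. Members thus lay 0.65 or 0.64 below the median of all genes under these scalings, and 0.75 below it in the signals as deposited. That median pools both designs, and the probe sets of MOE430A alone had a lower one as deposited, at -0.43. The calls depend on single samples: none of the 49 members, and no probe set of MOE430A, was called without CD49- replicate 2, CD49- replicate 3 or CD49+ replicate 3, all of MZ1468, and 3 members were called without CD49+ replicate 2. Without an MZ1484 sample more were called, all lower, 10 without CD49- replicate 1 and 7 without CD49+ replicate 1. In such bulk preparations fewer cells of a type and less RNA per cell cannot be told apart.

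Other measures moved with the submission too. The summed signal of the granulocyte and monocyte markers (4 of 5 measured, 1 above the bound on all arrays) was 19978 to 44240.0 in MZ1484, against 3758 to 11436 in MZ1468. Most of that sum is Lyz2, with 31875 (CD49+) and 19728 (CD49-) in MZ1484. Csf1r gave 12158 (CD49+) and 7.73 (CD49-, under the bound) in MZ1484, the latter below every MZ1468 sample. Elane and Itgam, each above the bound in 2 samples, had submission differences of 0.72 and -0.24. The summed T cell markers (4 of 4 measured, 0 above the bound on all arrays, Cd3e on none) gave 2861 to 6027 in MZ1484, against 545 to 2179 in MZ1468. That sum is mostly Cd8a on MOE430B, with 5794 (CD49+) and 2724 (CD49-) in MZ1484, while Cd4 and Cd3g each exceeded the bound in 1 sample. The stem and progenitor markers (8 of 10 measured, 6 above the bound on all arrays) gave 62005 to 98882 in MZ1484, against 18437 to 35003 in MZ1468. Most of that sum in MZ1484 is Mecom on MOE430B, with 56049 (CD49+) and 38754 (CD49-), whereas Cd34 and Ptprc had negative submission differences, -1.45 and -0.95, with overlap. The part of these and of the MOE430A signal quality given above in the proteasome differences was not tested.

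**Figure D2:**
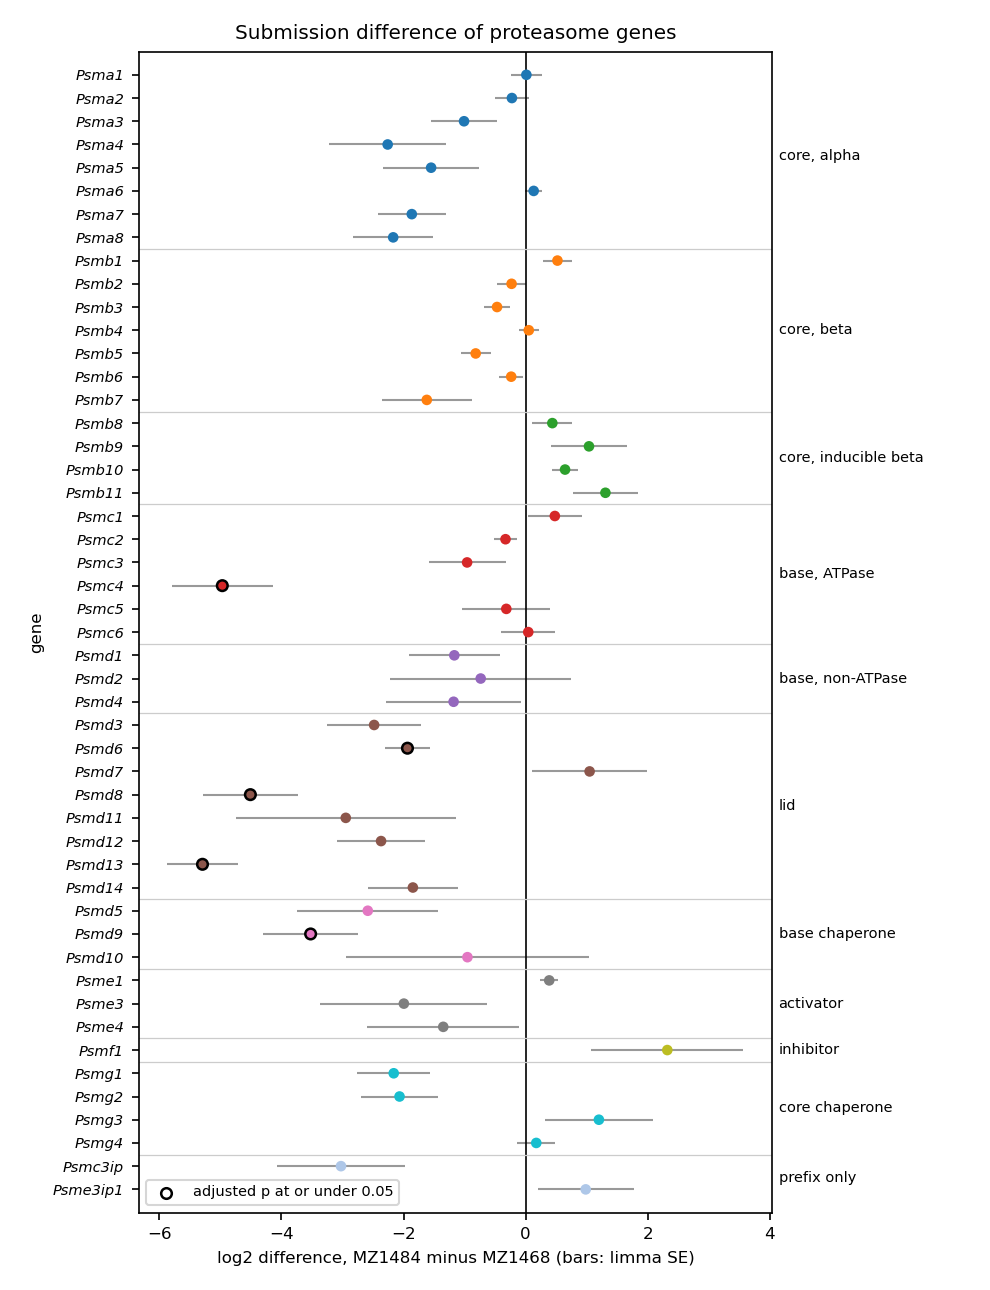
Difference MZ1484 minus MZ1468 (horizontal axis, log2) of each of the 49 members, grouped by role, with limma's standard error as bars and a black ring where the adjusted p was at or under 0.05. The 5 ringed genes lie between -5.29 (Psmd13) and -1.94 (Psmd6), 4 of them in the cap, and all 4 inducible or tissue-specific beta subunits lie to the right of 0. Of these 4, Psmb11 exceeded the bound in only 1 sample.

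Among the alpha subunits of the core, which form the outer rings and the gate, 3 of 8 had submission differences between -0.22 and 0.13, and the other 5 had differences between -2.26 and -1.01, none called. Psma1, Psma2 and Psma6 had log2 ranges of 0.35, 0.57 and 0.33 over all 6 samples. Psma7 gave signals of 1932 (CD49+) and 1547 (CD49-) in MZ1484, against 6379 and 8764 (CD49+) and 3870.0 and 7589.9 (CD49-) in MZ1468. Both MZ1484 samples lay below the other 4, with a difference of -1.86 (SE 0.55, limma adjusted p = 0.0982). Psma8, a subunit known from the testis, gave 92.4 (CD49+) and 67.1 (CD49-) in MZ1484, neither above the bound, against 427 and 732 (CD49+) and 529 and 242 (CD49-) in MZ1468. That is at least 3.74-fold lower in MZ1484 (limma adjusted p = 0.102).

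Psma4 gave 309.5 (CD49+) and 3116 (CD49-) in MZ1484, against 7639.7 and 4296 (CD49+) and 4498 and 3894 (CD49-) in MZ1468. Psma3 gave 3437 (CD49+) and 21806 (CD49-) in MZ1484, against 15193 and 17738 (CD49+) and 19844 and 17387 (CD49-) in MZ1468. In both genes the CD49+ sample of MZ1484 stood far below the other 5, and for Psma3 the CD49- sample of MZ1484 was the highest of all. Neither was called between CD49 groups (limma adjusted p above 0.05).

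The standard beta subunits carry the proteolytic sites on Psmb5, Psmb6 and Psmb7. Psmb5, the chymotrypsin-like site, gave 107170.0 (CD49+) and 75649 (CD49-) in MZ1484, against 177233 and 161564 (CD49+) and 163979 and 135262 (CD49-) in MZ1468. These signals are from MOE430B, and those of Psmb6 and Psmb7 from MOE430A. On MOE430A the same Psmb5 probe set gave 15165.5 (CD49+) and 7068 (CD49-) in MZ1484. In MZ1468 it gave 20488 and 20493.5 (CD49+) and 20871 and 20487 (CD49-). Its submission difference on MOE430A was -0.99 (limma adjusted p = 0.0909). Psmb6, the caspase-like site, gave 21226 (CD49+) and 16478 (CD49-) in MZ1484, against 18788 and 22477 (CD49+) and 24489 and 22719 (CD49-) in MZ1468. Psmb7, the trypsin-like site, gave 450.4 (CD49+) and 195 (CD49-), against 987 and 1640.2 (CD49+) and 832 and 662 (CD49-). For Psmb5 and Psmb7 both MZ1484 samples were the lowest of the 6, while for Psmb6 the groups overlapped. The submission differences were -0.82 (SE 0.25), -0.24 (SE 0.19) and -1.62 (SE 0.73), and none was called, the smallest limma adjusted p among the 7 standard beta genes being 0.213 (Psmb5). Their CD49 differences were 0.29 (SE 0.42), -0.01 (SE 0.21) and 0.87 (SE 1.06), all uncalled. Psmb2 gave 10002 (CD49+) and 16412 (CD49-) in MZ1484, against 15320.4 and 14512 (CD49+) and 14908 and 15362 (CD49-) in MZ1468, so that only the CD49+ sample of MZ1484 stood apart. The other standard beta genes, Psmb1, Psmb3 and Psmb4, had log2 ranges of 1.00, 1.00 and 0.40, and a second probe set of Psmb3 is given with the other probe sets. The further probe sets of Psmb1 had ranges of 1.72 and 1.34, with both MZ1484 samples highest (submission differences 1.10 and 0.91, uncalled).

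The interferon-inducible sites Psmb8, Psmb9 and Psmb10, which replace Psmb5, Psmb6 and Psmb7 in the immunoproteasome, had positive submission differences, none called. Psmb8 gave 15718 (CD49+) and 8931 (CD49-) in MZ1484, against 8260.5 and 8737 (CD49+) and 9402 and 8579 (CD49-) in MZ1468. Psmb9 gave 152.5 (CD49+) and 686 (CD49-), against 73.6 (under the bound) and 159 (CD49+) and 192 and 197 (CD49-). Psmb10 gave 25837 (CD49+) and 29460.3 (CD49-), against 22151 and 15367 (CD49+) and 18258 and 15456 (CD49-). Psmb8 was high in the CD49+ sample of MZ1484 alone and Psmb9 in the CD49- one, whereas both MZ1484 samples of Psmb10 exceeded the other 4. Submission differences were 0.44 (SE 0.33), 1.04 (SE 0.62) and 0.65 (SE 0.21), with limma adjusted p of 0.43, 0.336 and 0.12. Psmb9 was the core gene whose CD49 groups did not overlap, all 3 CD49+ samples lying below all 3 CD49- samples (difference -1.13, SE 0.72, not called). Of its CD49+ signals, 73.6 was under the bound and 152.5 was close to that array's bound of 149. The groups did not overlap for 8.12% of all tested genes. The summed signal of 6 measured interferon-regulated genes outside the proteasome, of 7 listed, was 51444 to 60590 in MZ1484, against 28578 to 37527 in MZ1468. Most of that sum in MZ1484 was B2m and Tapbp, with 27628 and 18300 (CD49+) and 26043 and 16400 (CD49-). For B2m, Tapbp, Irf7 and Tap2 (above the bound in 1 sample) both MZ1484 samples exceeded all MZ1468 samples. Tap1 and Irf1 overlapped, with submission differences of 0.33 and -0.35. The part of this sum in the values of Psmb8, Psmb9 and Psmb10 was not tested. Psmb11, the thymus-specific subunit, exceeded the bound in 1 of 6 samples.

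In the base of the cap Psmc4 was the ATPase called between the submissions, and the other 5 had differences between -0.96 and 0.48. Psmc4 gave 1457 (CD49+) and 106 (CD49-) in MZ1484, against 15198 and 13469 (CD49+) and 13721 and 13273 (CD49-) in MZ1468. The 4 MZ1468 samples were nearly level and both MZ1484 samples far below them. Its difference was -4.97 (SE 0.83, limma adjusted p = 0.0291), lower in 2 of 2 MZ1484 samples, and its CD49 difference was 1.22 (SE 1.91). Psmc3 gave 29250.2 (CD49+) and 3541 (CD49-) in MZ1484, against 25838 and 16594 (CD49+) and 19678 and 18307 (CD49-) in MZ1468, the CD49- sample of MZ1484 standing alone at the low end. Psmc6 gave 14559 (CD49+) and 4901 (CD49-), against 9290.0 and 7639 (CD49+) and 8794 and 7227 (CD49-), which places the 2 MZ1484 samples at both ends. Its next brightest probe set, above the bound in all 6 samples, gave 527 (CD49+) and 150 (CD49-) in MZ1484. Both lay below the MZ1468 samples, at 569 to 1804 (submission difference -1.84, limma adjusted p = 0.257). Psmc2 gave 17972 (CD49+) and 16943 (CD49-) in MZ1484, against 17424 and 21963 (CD49+) and 25804 and 23364 (CD49-) in MZ1468, with a submission difference of -0.33 (SE 0.19). Psmc1 and Psmc5 had log2 ranges of 1.09 and 1.59 with overlapping groups.

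The non-ATPase scaffold Psmd2 and the ubiquitin receptor Psmd4 had the 2 largest CD49 differences within MZ1468. Psmd2 gave 8375 (CD49+) and 347 (CD49-) in MZ1484, against 1757 and 1064 (CD49+) and 7091 and 5457 (CD49-) in MZ1468. Psmd4 gave 2039 (CD49+) and 554 (CD49-) in MZ1484, against 927 and 1113 (CD49+) and 4856 and 7098 (CD49-) in MZ1468. In both genes CD49+ was the higher sample in MZ1484 and the lower pair in MZ1468. The CD49 difference was 4.49 in MZ1484 and -2.16 in MZ1468 for Psmd2, and 1.83 and -2.50 for Psmd4. Over all samples it was 0.05 (SE 1.41) and -1.06 (SE 1.19), neither called. Psmd1, the other scaffold, gave 114 (CD49+) and 50.2 (CD49-) in MZ1484, both under the bound, against 415 and 132 (CD49+) and 86.4 and 347 (CD49-) in MZ1468. The submissions overlapped, and only on average was Psmd1 lower in MZ1484, at least 1.69-fold and uncalled (limma adjusted p = 0.364).

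The lid held 3 of the 5 called members, and both MZ1484 samples were the lowest of the 6 for 6 of its 8 genes. Of all tested genes over both designs 3.35% were called lower in MZ1484, and 19.8% had both MZ1484 samples lowest. On MOE430A, where all 8 lid genes were read, 708 of 11313 tested probe sets were called lower. Psmd13 gave 217 (CD49+) and 355 (CD49-) in MZ1484, against 15090.2 and 9919 (CD49+) and 10378 and 13151 (CD49-) in MZ1468. Psmd8 gave 163 (CD49+) and 2299 (CD49-), against 13994 and 12512 (CD49+) and 18474 and 16105 (CD49-). Psmd6 gave 8165 (CD49+) and 3188 (CD49-), against 21422 and 17469 (CD49+) and 18048 and 21838 (CD49-). All 3 were close together over the MZ1468 samples and low in both MZ1484 samples, Psmd8 most in the CD49+ and Psmd6 most in the CD49- sample. The differences were -5.29 (SE 0.57, limma adjusted p = 0.0212) for Psmd13, -4.51 (SE 0.77, limma adjusted p = 0.0295) for Psmd8 and -1.94 (SE 0.37, limma adjusted p = 0.0356) for Psmd6.

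Psmd14, the lid's deubiquitinating enzyme, gave 1345 (CD49+) and 13359.6 (CD49-) in MZ1484, against 15969 and 16108 (CD49+) and 15916 and 13674 (CD49-) in MZ1468. It was low in 1 sample, the CD49+ one of MZ1484, and its submission difference of -1.85 (SE 0.73) was not called. Psmd7, its partner in the enzymatic pair, gave 1557 (CD49+) and 95.1 (CD49-, under the bound), against 681 and 120.1 (CD49+) and 102 and 125 (CD49-). It was the lid gene with a positive submission difference, 1.05 (SE 0.94, uncalled), and its CD49 difference of 2.04 (SE 0.97) had the smallest unadjusted p of the members. Psmd3, Psmd11 and Psmd12 had submission differences of -2.48 (SE 0.77), -2.95 (SE 1.80) and -2.37 (SE 0.73), none called, and 1 MZ1484 signal of Psmd3 and of Psmd11 was under the bound. Further probe sets of Psmd11 are given with the other probe sets.

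**Figure D3:**
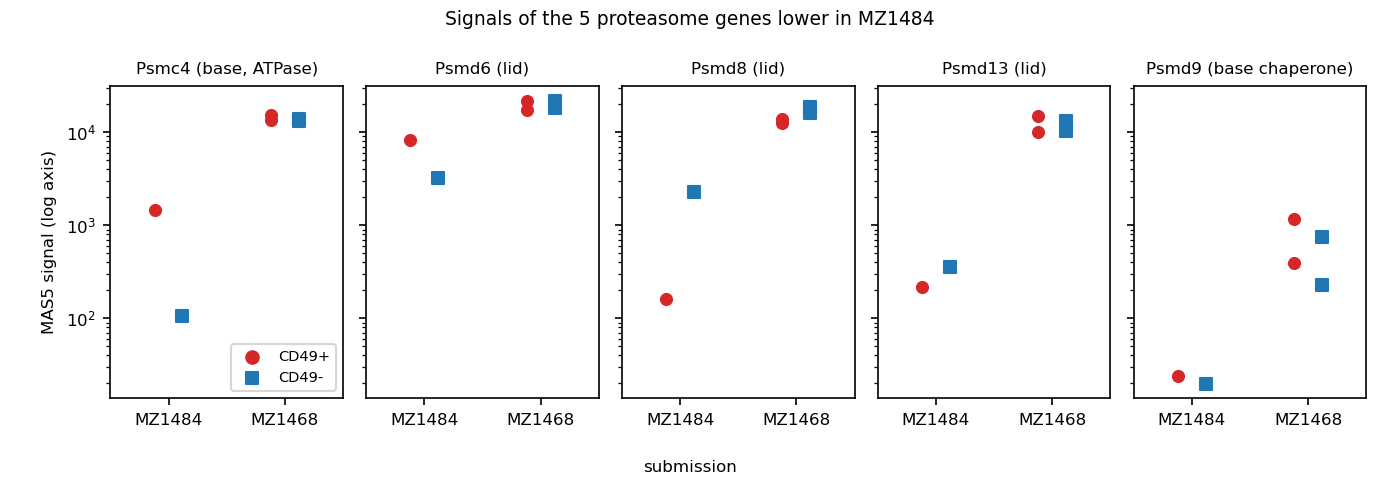
MAS5 signals (log axis) of the 5 called members in each sample, MZ1484 left and MZ1468 right, CD49+ as red circles and CD49- as blue squares. In every panel the 2 MZ1484 points lie below the 4 MZ1468 points.

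Base chaperones escort the ATPases and leave the finished cap. Psmd9 gave 23.8 (CD49+) and 19.6 (CD49-) in MZ1484, neither above the bound, against 389 and 1165 (CD49+) and 228 and 744 (CD49-) in MZ1468. That is at least 4.41-fold lower in MZ1484, with a fitted difference of -3.52 (SE 0.78, limma adjusted p = 0.0495). The call was lost with the pseudocount at the median signal, without the filter, after median centring and without the mean-variance trend. It was also lost when any single sample other than CD49+ replicate 2 was left out. Psmd10, also known as gankyrin, gave 97.0 (CD49+, under that array's bound of 149) and 21908 (CD49-) in MZ1484, against 10958 and 2994 (CD49+) and 1921 and 1577 (CD49-) in MZ1468. The 2 MZ1484 samples were thus its lowest and its highest. Psmd5 gave 257 (CD49+) and 767 (CD49-) in MZ1484, against 8420.4 and 666 (CD49+) and 3955 and 2806 (CD49-) in MZ1468, with overlap and no call (difference -2.59, SE 1.15).

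Core chaperones, which dimerise and hold the alpha ring during assembly, had a positive CD49 difference in both submissions for 4 of 4 genes, none called. Psmg4 gave 17801 (CD49+) and 7959 (CD49-) in MZ1484, against 10702 and 12882 (CD49+) and 8467 and 10559 (CD49-) in MZ1468, so that every CD49+ sample exceeded every CD49- sample (difference 0.59, SE 0.34, not called). Psmg3 gave 6749 (CD49+) and 959 (CD49-), against 983 and 1478 (CD49+) and 929 and 1068 (CD49-), and its difference of 1.11 (SE 1.07) came mostly from the CD49+ sample of MZ1484. Psmg1 gave 90.3 (CD49+) and 9.33 (CD49-), neither above the bound, against 366 and 231 (CD49+) and 194 and 297 (CD49-), at least 2.21-fold lower in MZ1484 (limma adjusted p = 0.0846). Psmg2 gave 1873 (CD49+) and 644 (CD49-), against 6586 and 5386 (CD49+) and 2812 and 4871 (CD49-), with both MZ1484 samples the lowest (difference -2.06, SE 0.64, limma adjusted p = 0.106).

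Among the activators, which open the core without ATP, Psme1 was steady and the other pair was not. Psme1, an interferon-inducible subunit, gave 32184 (CD49+) and 28354 (CD49-) in MZ1484, against 20515 and 25515 (CD49+) and 22927 and 23645 (CD49-) in MZ1468, slightly higher in both MZ1484 samples (difference 0.39, SE 0.15, limma adjusted p = 0.16). Psme3, a nuclear activator, gave 13808 (CD49+) and 103 (CD49-), against 8961 and 4713 (CD49+) and 4601 and 4095 (CD49-). Every CD49+ sample exceeded every CD49- sample, by little in MZ1468 and by far in MZ1484 (CD49 difference 2.63, SE 1.44, not called). Psme4, a large single-chain activator, gave 1213 (CD49+) and 32.2 (CD49-, under the bound), against 315 and 1047 (CD49+) and 965 and 596 (CD49-). The inhibitor Psmf1 gave 11612 (CD49+) and 1204 (CD49-), against 517.5 and 398 (CD49+) and 604 and 2211 (CD49-), high in the CD49+ sample of MZ1484 alone (submission difference 2.32, SE 1.25, uncalled). Of the prefix matches, Psmc3ip gave 1774.5 (CD49+) and 28900.2 (CD49-) in MZ1484, against 28478 and 111586 (CD49+) and 81029.9 and 52056 (CD49-) in MZ1468, with overlap and no call on this probe set.

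For genes with several probe sets the probe sets bear on how far a value stands for the gene. The next brightest probe set of Psmc4 gave 556 (CD49+) and 162 (CD49-) in MZ1484, against 23232 and 13365 (CD49+) and 14902 and 11830.5 (CD49-) in MZ1468, a difference of -5.53. That of Psmd13, under the bound in the CD49+ sample of MZ1484, had -4.85 and that of Psmd6 -1.72, in the direction of the represented probe set. For Psmd9 the other tested probe set went the opposite way, at 1.06. Psmd8 and Psmd14 had 1 probe set each. Psmd11 had 8, which disagreed. Besides the represented one, at -2.95, those above the bound in all 6 samples had submission differences of -3.60, -2.50, -0.50 and 0.71. The second probe set of Psma7 gave 39.6 (CD49+, under the bound) and 1507 (CD49-) in MZ1484, where the first gave 1932 (CD49+) and 1547 (CD49-). The 2 brightest probe sets of Psme3 ran opposite ways in MZ1484: the second gave 723 (CD49+) and 4393 (CD49-), where the first gave 13808 (CD49+) and 103 (CD49-). Those of Psmf1 did the same, the second giving 13.4 (CD49+, under the bound) and 232 (CD49-), where the first gave 11612 (CD49+) and 1204 (CD49-). The second probe sets of Psma3 and Psmd2 were under the bound in both MZ1484 samples, so they say nothing of how far the first stand for these genes. Psmb3 and Psmc3ip had a second probe set that was called while the first was not. That of Psmb3 gave 3326 (CD49+) and 3274 (CD49-) in MZ1484, against 12117 and 9857 (CD49+) and 8895 and 10963 (CD49-) in MZ1468, both MZ1484 samples being the lowest (difference -1.65, SE 0.36, limma adjusted p = 0.0486). That of Psmc3ip gave 221 (CD49+) and 149 (CD49-), against 2581 and 6433 (CD49+) and 7635 and 5366 (CD49-), again with both MZ1484 samples lowest (difference -4.62, SE 0.80, limma adjusted p = 0.0301). With the probe sets of MOE430A preferred, Psmc3ip is called as well, which makes 6 members. The 3 probe sets of members that lie on both designs gave submission differences of -0.99 on MOE430A and -0.82 on MOE430B for Psmb5, -0.39 and -0.32 for Psmc5, and -0.24 and 0.01 for Psma1.

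**Figure D4:**
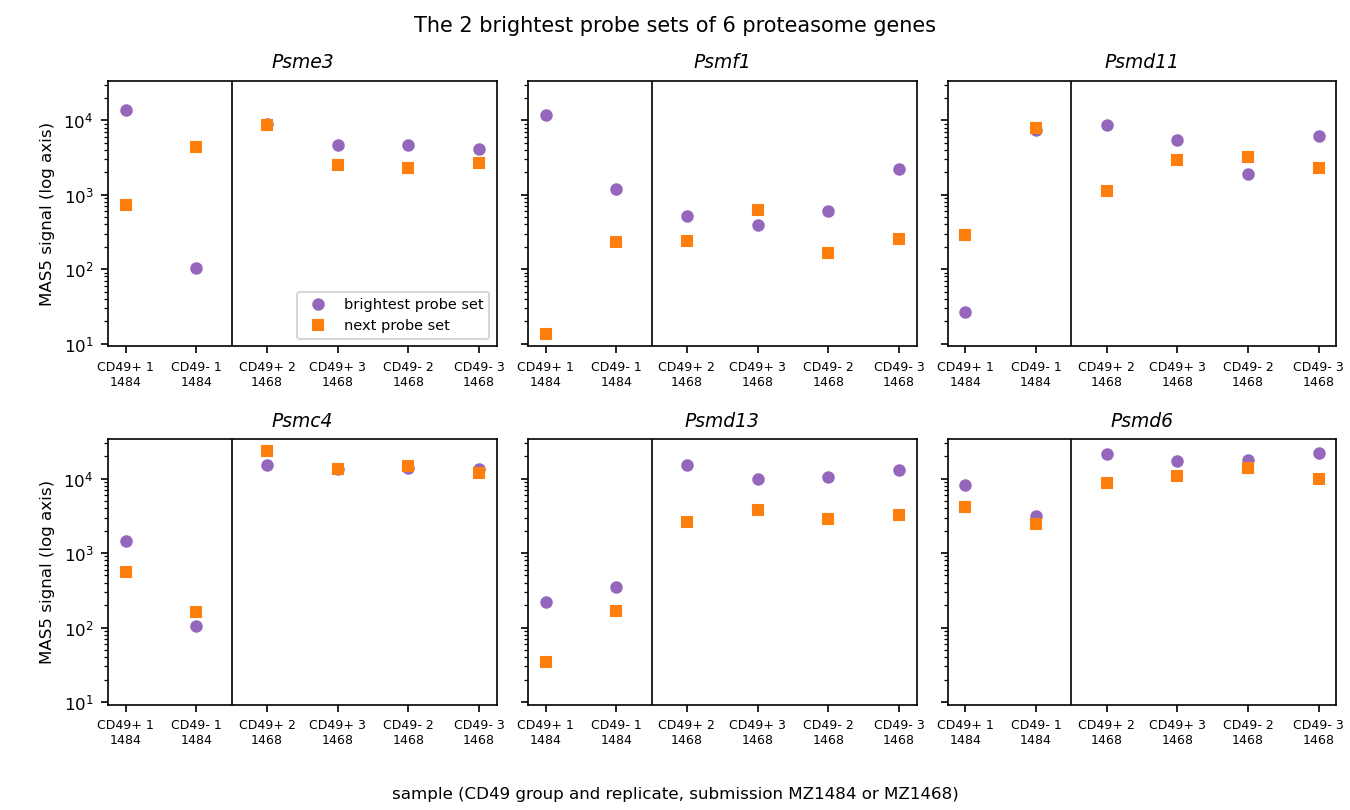
MAS5 signals (log axis) of the 2 brightest probe sets of 6 members in each sample, with the MZ1484 samples left of the line, CD49+ left of CD49- in each submission. Both probe sets of Psmc4, Psmd13 and Psmd6 are low in MZ1484, whereas for Psme3 and Psmf1 the CD49+ and CD49- samples of MZ1484 stand in opposite order on the 2 probe sets. For Psmd11 both probe sets are lowest in the CD49+ sample of MZ1484.

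Whether the CD49 difference itself differed between submissions was tested as an interaction, the CD49 difference in MZ1484 minus that in MZ1468. It passed limma's adjusted threshold for 6 of 49 members, beside 1.36% of all tested genes, and rests on 1 CD49+ against 1 CD49- sample in MZ1484, which were assumed to vary like the MZ1468 samples. The 1.36% pools both designs, while all 6 members were read on MOE430A. Over all probe sets 245 of 11313 tested were called on MOE430A and 0 of 11256 on MOE430B. Psmd10 had a fitted value of -9.17 (SE 1.33, limma adjusted p = 0.0453), from CD49 differences of -7.47 in MZ1484 and 1.70 in MZ1468, but its CD49+ signal in MZ1484 was under the bound, so the size of the first is not measured. Psmd2 had 6.65 (SE 0.99, limma adjusted p = 0.0453) and Psme3 6.16 (SE 0.91, limma adjusted p = 0.0453), whose second probe set ran the opposite way in MZ1484. Psmd14 had -3.41 (SE 0.41, limma adjusted p = 0.0327), Psmc3 2.91 (SE 0.44, limma adjusted p = 0.0475) and Psma3 -2.48 (SE 0.35, limma adjusted p = 0.0439), each with a CD49 difference between -0.18 and 0.13 in MZ1468. In MZ1484 the CD49+ sample was the higher for 3 of the 6 (Psmc3, Psmd2 and Psme3) and the lower for the other 3. None of the 49 members was called without CD49- replicate 2 or replicate 3, without the filter on low signals, without the mean-variance trend or after quantile normalization.

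**Figure D5:**
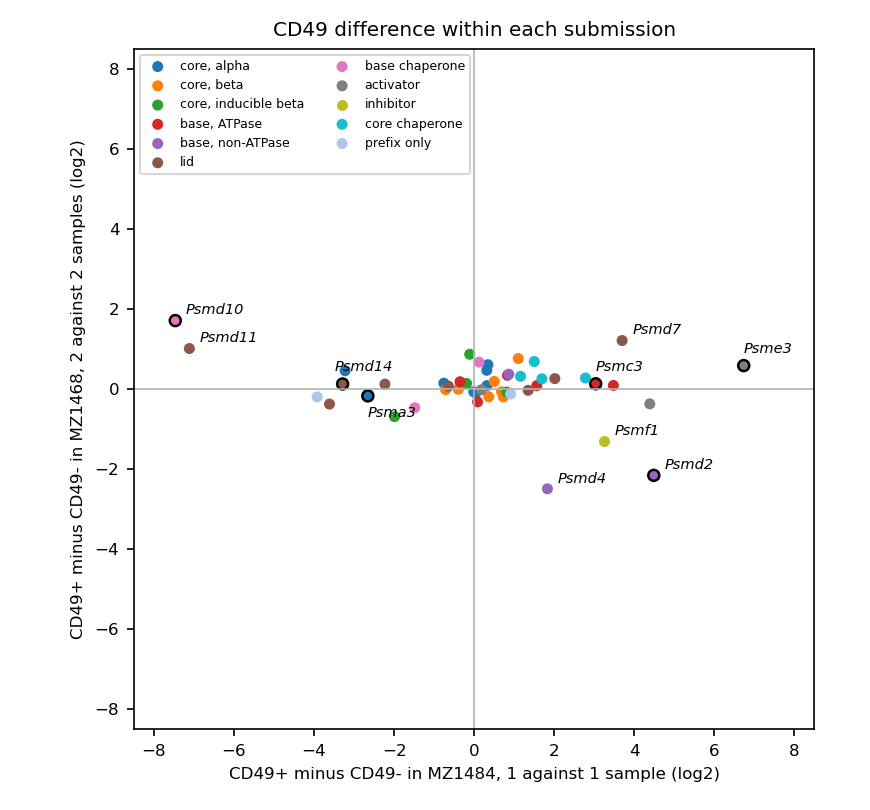
CD49 difference (CD49+ minus CD49-, log2) of the 49 members in MZ1484 (horizontal axis, 1 against 1 sample) and in MZ1468 (vertical axis, 2 against 2), coloured by role, with black rings at the 6 members called in the interaction and names at those and at members over 1 in size in MZ1468. Points spread from -7.47 (Psmd10, with 1 signal under the bound) to 6.74 horizontally and from -2.50 to 1.70 vertically.

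Promoters of the 5 members called between the submissions are shown because these genes were the ones called. Of the members 41 had a promoter in the RefSeq table of GRCm38.p6 (44 promoters, from 250 bases before to 50 after the start), among 32851 promoters in all. The letters CGGAAGT, a core recognised by ETS factors, were searched on both strands and were chosen after these sequences had been seen. They occurred in 15 of 44 member promoters (34.1%), against 6.42% of all promoters, and in 4 of the 5 called members, Psmd9 being without. The 14 members that hold them include 10 that were not called, among them the steady Psma6 and Psmb4. TGACNNNGC, the antioxidant response element, occurred in 13.6% of member promoters, against 12.4% of all, and CCAAT in 36.4%, against 37.4%. The stretch from 80 bases before to 30 after the start is printed 5′ to 3′ on the gene's strand, with CGGAAGT or its reverse complement ACTTCCG in capitals.
Psmc4, chr7:28050063-28050172, minus strand: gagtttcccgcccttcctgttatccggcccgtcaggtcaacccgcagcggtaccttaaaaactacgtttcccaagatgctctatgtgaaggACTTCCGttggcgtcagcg
Psmd6, chr14:14120916-14121025, minus strand: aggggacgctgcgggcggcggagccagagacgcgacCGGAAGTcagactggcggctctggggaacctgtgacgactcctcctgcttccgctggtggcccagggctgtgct
Psmd8, chr7:29180644-29180753, minus strand: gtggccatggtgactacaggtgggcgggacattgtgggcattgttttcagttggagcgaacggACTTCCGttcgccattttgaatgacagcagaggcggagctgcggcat
Psmd9, chr5:123228110-123228219, plus strand: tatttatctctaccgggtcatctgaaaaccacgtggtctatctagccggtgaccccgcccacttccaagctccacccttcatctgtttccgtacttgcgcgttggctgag
Psmd13, chr7:140882314-140882423, plus strand: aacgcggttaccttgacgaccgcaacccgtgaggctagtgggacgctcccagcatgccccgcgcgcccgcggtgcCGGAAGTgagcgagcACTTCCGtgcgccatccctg
Psmd13 holds the letters in both orientations, Psmc4 and Psmd8 as ACTTCCG and Psmd6 as CGGAAGT. A match describes the letters and shows no binding.

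Beyond the members, a list of 24 genes that deliver substrates to the proteasome, help assemble it or control its transcription had 16 measured genes. In limma's tests 0 of the 16 were called between CD49 groups and 0 between submissions, with 0 and 2 at an unadjusted p under 0.05, and their median submission difference was -0.32. The shuttle Rad23b gave 319 (CD49+) and 294 (CD49-) in MZ1484, neither above the bound, against 49088 and 4724 (CD49+) and 4712 and 5485 (CD49-) in MZ1468, at least 8.73-fold lower in MZ1484 (limma adjusted p = 0.152). The shuttle Ubqln1 went the other way, with 5054 (CD49+) and 6709 (CD49-), against 48.2 and 519 (CD49+) and 428 and 687 (CD49-), a difference of 4.11 (SE 1.04, limma adjusted p = 0.068). Uchl5, a deubiquitinase of the cap, and Ecpas, a scaffold that clamps core and cap, had submission differences of -0.97 (SE 0.52) and -0.99 (SE 0.75). The unfolding ATPase Vcp had a CD49 difference of -1.06 (SE 0.62, not called). Zfand5, a proteasome-binding factor, was the gene of the list called in the interaction (-3.04, SE 0.42, limma adjusted p = 0.0434). Pomp, the core maturation factor, singled out after its values were seen, stayed between 16464 and 18782 in all 6 samples, a log2 range of 0.19.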

How the data were processed

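The deposited values were linear MAS5 signals (intensity, 1 per probe set), which the authors computed using MAS5 according to the submitters' processing notes. The values share a common trimmed mean across arrays. For the MAS5 version and settings, nothing is stated in the labels. From these, log2(signal + the 25th percentile of a design's signals) was computed. Probe sets at or above the median of mean log2 were tested (11313 on MOE430A, 11256 on MOE430B) with limma 3.58.1 in R 4.3.3 (lmFit, eBayes with trend), Benjamini-Hochberg adjusted within each design, at a threshold of 0.05. Designs were fitted separately. SE is the moderated standard error. The CD49 fit had no covariate and the submission fit had CD49 group. Replicate numbers follow accession order and were not used to pair samples, although replicate 1 of both groups belongs to MZ1484 and replicates 2 and 3 to MZ1468. A fold against samples that are all under the Bacillus control bound is a lower bound ("at least"): bright samples enter with their mean log2 signal, dim ones with the higher of bound and signal. Shares over all genes use 1 probe set per gene. Symbols came from the platform annotation, and 49 of 49 members matched the RefSeq gene table of GRCm38.p6 by Entrez identifier.

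Genes with values in every sample were the catalytic and inducible subunits, activators, the inhibitor, core chaperones, Psmc3ip, the 2 members of each other class with the smallest p in the CD49 and in the submission fit, and every called member (35 in all). From the list of further genes the 3 with the smallest p in each fit were named, and Zfand5 and Pomp were added after their values were seen. The members, lists and tests were chosen with earlier results of these data known. The fits were tested on simulated data. Alternatives covered pseudocount, filter, scaling, variance trend, covariates, single samples and probe set choice. Precision is limited by the number of arrays, which carry no read depth.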

Additional observations from a re-analysis of the deposited data

Results flagged for a closer look

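Among the 4 MZ1468 samples, 35 named members were examined for a sample far from the others, of which chance would flag about 1 in 20. Psmd7 gave 681 in CD49+ replicate 2, where the other 3 gave 102 to 125. Psmd14 gave 13674 in CD49- replicate 3, where the other 3 gave 15916 to 16108. The CD49 difference differed between the submissions, by limma's interaction test, for 6 named members, as the CD49 difference in MZ1484 minus that in MZ1468. It was -2.48 for Psma3, 2.91 for Psmc3, 6.65 for Psmd2, -3.41 for Psmd14, -9.17 for Psmd10 and 6.16 for Psme3, each resting on 1 CD49+ and 1 CD49- sample in MZ1484, that of Psmd10 with its CD49+ signal under the bound.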

How the results depend on the processing

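Counts of members called between the CD49 groups were 0 under every alternative run. Members called between the submissions numbered 5 and were 2 without the filter on low signals, 3 without the mean-variance trend, 4 to 6 under the other settings with a test and 0 to 10 when 1 sample was left out. All called members were lower in MZ1484 in each of these settings, and Psmc4 and Psmd13 were called in every setting that called any. The median submission difference of -0.95 was -0.64 after quantile normalization, -0.69 after median centring and -0.14 to -0.88 with 1 sample left out. The median CD49 difference of 0.16 ranged from -0.14 to 0.31 with 1 sample left out. Members called in the interaction numbered 6 and were 2 with the pseudocount at the median signal, 11 among the top 25% of probe sets, 0 without the filter, after quantile normalization or without the trend, and 0 to 12 with 1 MZ1468 sample left out. The alternatives for this count, and leaving samples out of the interaction, were chosen after seeing the data. Over all probe sets of MOE430A, 839 were called between the submissions, 559 with the pseudocount at the median signal, 319 without the filter and 0 to 1298 with 1 sample left out, and 245 in the interaction, 31 without the filter, 734 in the top 25%, 89 after quantile normalization, 0 without the trend and 0 to 1977 with 1 sample left out. On MOE430B, 45 were called between the submissions, 103 without pseudocount, 12 with the pseudocount at the median signal, 149 in the top 25%, 18 after median centring, 176 without the trend, 148 without the CD49 term and 0 to 28 with 1 sample left out, and 0 in the interaction in every setting (2314 on MOE430A and 1301 on MOE430B at an unadjusted p under 0.05). Lower calls made up 75.6% on MOE430B and 50% after median centring. For the named members, 72 alternative CD49 differences, 26 submission differences and 3 interactions changed sign or moved beyond the spread, 26 submission differences and 37 interactions lost the call, 7 submission differences gained one, and no called difference changed sign. Submission as a block and scan day as a block are the same fit. The causes were not tested. With 1 or 2 samples a side in MZ1484, a difference that misses the threshold shows no absence of one.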
